A study of Mus musculus with 16 samples.

Results

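The genes of de novo lipogenesis, the making of fatty acids from acetyl-CoA, were followed in mouse liver across 4 groups that combined diet and perfluorooctanoic acid (PFOA), a persistent perfluorinated surfactant. The set was 9 genes chosen by symbol for their known roles: the transcription factors Srebf1 and Mlxipl, the enzymes Acly, Acss2, Acaca, Acacb, Fasn and Me1, and the regulator Thrsp. The choice was made with earlier results of these data known. Each symbol matched 1 row, so the set is 9 of the 53465 genes in the table, and all 9 were among the 14998 genes with enough counts to be tested. All mice were C57BL/6, had been on their diet for 16 weeks before a treatment of 8 weeks, and were 29 to 30 weeks old. HFD_PFOA mice were fed a high-fat diet (HFD) and given PFOA, CD_PFOA mice were fed a control diet (CD) and given PFOA, HFD_vehicle mice were fed HFD and given vehicle, and CD_vehicle mice were fed CD and given vehicle. Each group had 4 mice, and each mouse gave 1 library of whole-liver RNA. The labels give neither a dose of PFOA nor the make-up of the diets nor the sex of the mice. The comparisons ask how PFOA changes these genes on each diet, how HFD changes them without and with PFOA, and whether the PFOA difference depends on the diet.

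The libraries held 14456524 to 25778125 counts. Values are counts per 1000000 counts (CPM) of the library after TMM scaling, and a gene is called here, and said to rise or fall, when its Benjamini-Hochberg adjusted p over all genes tested is under 0.05 in edgeR's quasi-likelihood test. All 10 hepatocyte markers were present in each library. Their summed level was 61010 to 74340 CPM in HFD_PFOA, 69470 to 85920 CPM in CD_PFOA, 88810 to 103800 CPM in HFD_vehicle and 116500 to 148800 CPM in CD_vehicle. Most of each sum was Alb, with 37030 to 46330, 43010 to 57840, 58550 to 70770 and 69420 to 105000 CPM in the same groups. With PFOA 8 of the 10 markers fell on each diet, but Cyp2e1 had 6381 to 7842 CPM in CD_PFOA and 4648 to 7634 CPM in CD_vehicle. The groups thus differ in hepatocyte marker RNA, and the part of this difference in the results below was not tested. Fewer cells of a type and less RNA per cell cannot be told apart in whole-liver RNA. CD_vehicle 1 and CD_vehicle 4 stand apart from their group, and fits without them are described below.

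In lipogenesis, ATP citrate lyase (Acly) splits cytosolic citrate into acetyl-CoA, and acetyl-CoA synthetase (Acss2) makes acetyl-CoA from acetate. Acetyl-CoA carboxylase (Acaca in the cytosol, Acacb at the mitochondrial surface) turns acetyl-CoA into malonyl-CoA, which fatty acid synthase (Fasn) extends to palmitate with NADPH that malic enzyme (Me1) helps to supply. In liver, SREBP-1 (Srebf1) raises these genes in response to insulin and ChREBP (Mlxipl) in response to sugar, and Thrsp (Spot 14) is a small nuclear protein of lipogenic tissues that follows the same signals. Malonyl-CoA made by Acacb is known as an inhibitor of fatty acid entry into mitochondria, and Me1 is also known in rodent liver as a gene raised by activators of the receptor PPARA.

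The promoters of 5 members are shown because these genes split into those lower with PFOA on CD (Fasn, Thrsp, Acly) and those higher with PFOA on both diets (Mlxipl, Me1). Srebf1 was also lower with PFOA on CD and is not shown. The sequences come from RefSeq on GRCm38.p6, which gave 13 annotated start windows for the 9 genes, each from 250 bases before to 50 bases after a start. They are written 5′ to 3′ on the strand of the gene. Capitals mark 4 motifs on either strand. The sterol regulatory element was searched as TCACNCCAC. The E-box was searched as CACGTG. The CCAAT box is its own spelling. The GC box was searched as GGGCGG.
Fasn, chr11:120824498-120824797, minus strand: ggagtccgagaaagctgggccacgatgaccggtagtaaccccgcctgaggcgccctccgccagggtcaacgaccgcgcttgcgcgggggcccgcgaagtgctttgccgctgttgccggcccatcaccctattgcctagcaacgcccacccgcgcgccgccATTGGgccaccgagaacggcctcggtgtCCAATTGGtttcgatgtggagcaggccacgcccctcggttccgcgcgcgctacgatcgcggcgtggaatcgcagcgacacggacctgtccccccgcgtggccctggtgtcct
Thrsp, chr7:97417501-97417800, minus strand: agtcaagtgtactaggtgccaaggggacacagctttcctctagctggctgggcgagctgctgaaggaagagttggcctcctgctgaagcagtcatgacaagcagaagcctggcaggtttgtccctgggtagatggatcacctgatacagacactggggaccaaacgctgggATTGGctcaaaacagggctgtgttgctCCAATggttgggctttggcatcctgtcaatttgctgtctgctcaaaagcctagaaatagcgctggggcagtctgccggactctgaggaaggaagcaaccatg
Acly, chr11:100527951-100528250, minus strand: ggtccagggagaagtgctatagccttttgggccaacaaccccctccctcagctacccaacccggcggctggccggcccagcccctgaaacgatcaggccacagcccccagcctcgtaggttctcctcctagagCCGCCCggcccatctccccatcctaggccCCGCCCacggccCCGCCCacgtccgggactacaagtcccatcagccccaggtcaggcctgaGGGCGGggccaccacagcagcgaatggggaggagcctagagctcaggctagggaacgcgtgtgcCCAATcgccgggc
Mlxipl, first of 2 windows, chr5:135089640-135089939, plus strand: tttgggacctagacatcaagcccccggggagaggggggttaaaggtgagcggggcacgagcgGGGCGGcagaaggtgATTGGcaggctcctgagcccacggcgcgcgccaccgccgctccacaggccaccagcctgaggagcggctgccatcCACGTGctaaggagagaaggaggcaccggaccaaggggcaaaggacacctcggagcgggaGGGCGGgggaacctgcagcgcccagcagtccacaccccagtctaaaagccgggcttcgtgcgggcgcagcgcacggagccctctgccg
Me1, second of 2 windows, chr9:86695865-86696164, minus strand: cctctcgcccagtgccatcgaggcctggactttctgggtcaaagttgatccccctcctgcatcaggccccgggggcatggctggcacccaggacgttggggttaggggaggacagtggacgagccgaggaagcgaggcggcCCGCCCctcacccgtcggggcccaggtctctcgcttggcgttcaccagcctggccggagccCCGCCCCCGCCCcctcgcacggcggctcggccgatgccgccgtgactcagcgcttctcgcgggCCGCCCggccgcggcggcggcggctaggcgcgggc

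The CCAAT box, the site of the factor NF-Y, was in 9 of the 13 windows and in 8 of the 9 genes, and in 37.4% of all 32851 RefSeq promoter windows of this length. The Fasn window holds 3 of them, of which a pair overlap on opposite strands, and the Thrsp window holds 2. The GC box was in 6 windows of 5 genes, and in 35.7% of all windows, with 4 in the Acly window and 4 in the Me1 window shown. The E-box, a site of USF factors, was in the first Mlxipl window alone, against 7.15% of all windows. The sterol regulatory element as spelled above was in 1 window, the second of Mlxipl, against 1.24% of all windows. The hexamer AGGTCA of nuclear receptors was in the Acly and Acacb windows, against 16.3% of all windows. These matches describe letters in the windows, and a window without a match says nothing of the factor. The shares over all windows compare with counts of windows and not of genes, since a gene can have more than 1 window. The only windows of Acaca (84195188–84195487) and Acacb (114165268–114165567) lie inside the gene spans given below, away from the first annotated base.

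On GRCm38 with GENCODE M21, Srebf1 (ENSMUSG00000020538.15) lies on chromosome 11 at 60199089–60222581, Acly (ENSMUSG00000020917.17) on chromosome 11 at 100476353–100528000, Acaca (ENSMUSG00000020532.18) on chromosome 11 at 84129672–84401651 and Fasn (ENSMUSG00000025153.9) on chromosome 11 at 120805846–120824547. Mlxipl (ENSMUSG00000005373.13) lies on chromosome 5 at 135089890–135138382 and Acacb (ENSMUSG00000042010.16) on chromosome 5 at 114146535–114250761. Acss2 (ENSMUSG00000027605.18) lies on chromosome 2 at 155517948–155585724, Me1 (ENSMUSG00000032418.15) on chromosome 9 at 86581371–86695953 and Thrsp (ENSMUSG00000035686.8) on chromosome 7 at 97412938–97417730. Because library preparation kept no strand, reads in exons that 2 genes share cannot be assigned to one of them, and such exons join Srebf1 with Rai1 and Mir6922, Mlxipl with Gm43500, Acss2 with Ggt7, Acss2os and Gss, and Me1 with A330041J22Rik. The count of Srebf1 sums its isoforms.

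With PFOA, Mlxipl and Me1 rose on both diets, and other members were called on 1 diet or on neither. On CD, Acly, Thrsp, Fasn and Srebf1 fell with PFOA. On HFD none of these 4 was called, and Acacb and Acss2 rose. The difference between the diets is tested by the interaction below, which called 0 members with all libraries. In counts, edgeR called 6 of 9 members in CD_PFOA over CD_vehicle, 2 higher and 4 lower, where it called 24.4% of all genes tested (11.8% higher and 12.6% lower). It called 4 of 9 members in HFD_PFOA over HFD_vehicle, 4 higher and 0 lower, where it called 16.5% of all genes (8.60% higher and 7.91% lower). The median log2 fold change of the 9 members was -0.57 on CD and -0.25 on HFD, beside a median over all genes of -0.0024 and 0.0075.

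**Figure D1:**
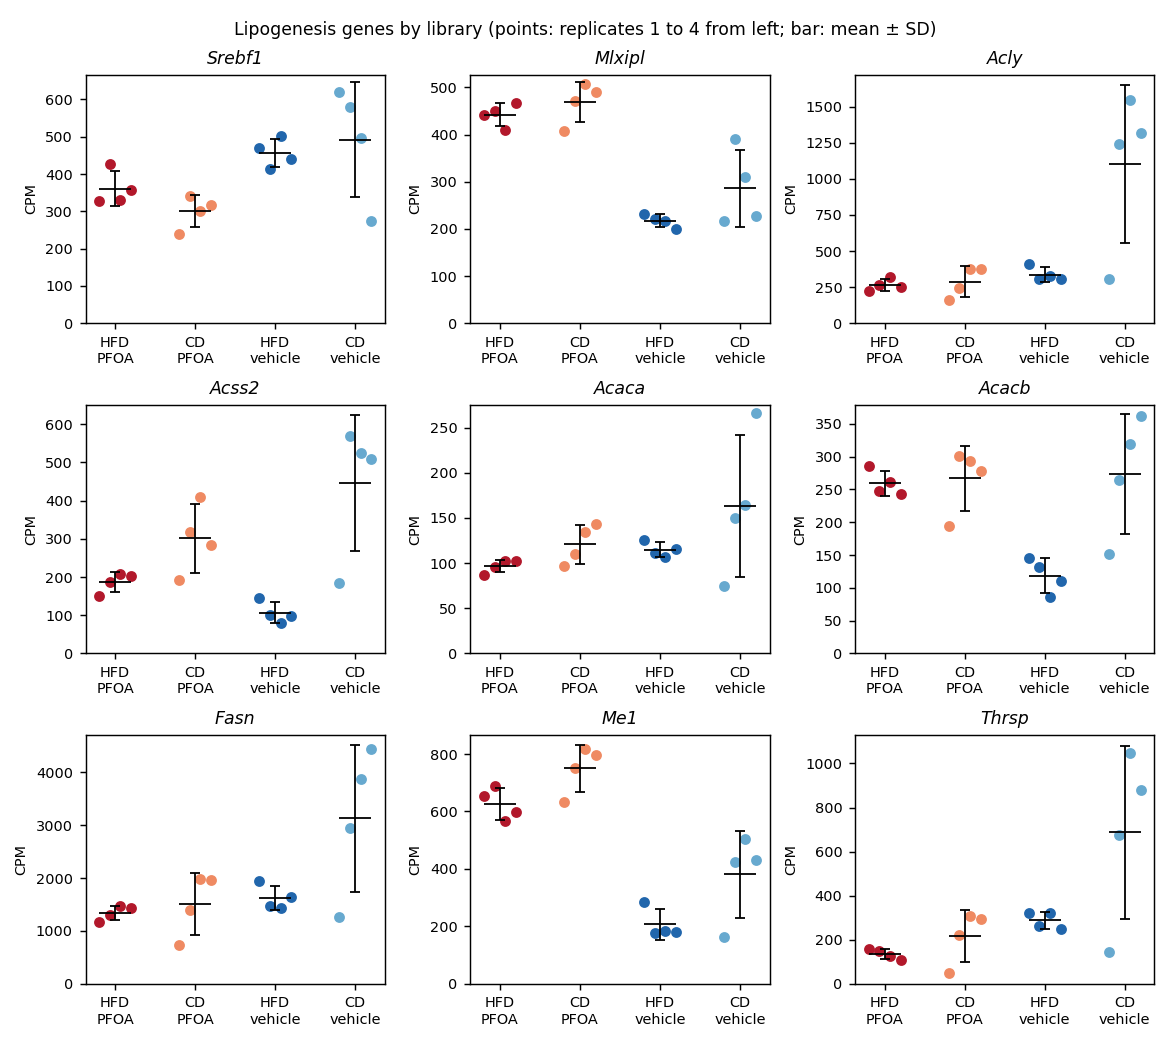
Level of each of the 9 genes in CPM (vertical axis, starting at 0) in the 4 groups (horizontal axis), with a point per mouse and a bar at the mean ± SD (n = 4). Mlxipl and Me1 stand higher in all 8 PFOA livers than in all 8 vehicle livers, and the CD_vehicle livers spread widely, with library 1 (the leftmost point) low in 8 genes.

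Without PFOA, HFD livers had less RNA of most members than CD livers. In HFD_vehicle over CD_vehicle, edgeR called 5 of 9 members, 0 higher and 5 lower (Acss2, Acly, Acacb, Fasn and Me1), where it called 10.4% of all genes (5.19% higher and 5.21% lower). The groups did not overlap in 2 members, Acss2 and Acacb, against 14.5% of all genes. The median of the members was -0.95 log2, beside -0.03 over all genes. Scaling by library totals moved the median of all genes in this comparison by 0.217 log2 and turned 779 higher and 782 lower calls into 2052 and 288. With it Acss2, Acly and Acacb kept their calls, while Fasn and Me1 lost them (edgeR adjusted p = 0.094 and 0.0537). The same scaling gave 2160 higher and 1376 lower calls in CD_PFOA over CD_vehicle, against 1763 and 1893, and 1117 and 1353 in HFD_PFOA over HFD_vehicle, against 1290 and 1186.

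With PFOA, no member was called between the diets. In HFD_PFOA over CD_PFOA edgeR called 0 of 9 members, and 1 had an unadjusted p under 0.05 (Acss2, -0.68 ± 0.27, edgeR adjusted p = 0.346). Without a filter on low counts edgeR called 1 of the 9, Acss2 (-0.68, edgeR adjusted p = 0.0234), and over all genes 142 higher and 83 lower. DESeq2 and limma-voom called 0 of the 9, beside 179 and 18 of all genes. In the main fit edgeR called 0.0600% of all genes (0.0467% higher and 0.0133% lower). With library totals 11 genes were higher and 1 lower, against 7 and 2. The groups overlapped in all 9 members, where 7.68% of all genes showed no overlap. The 95% intervals of the difference reached -1.25 to -0.12 for Acss2, -1.61 to 0.26 for Thrsp and -0.81 to 0.56 for Acly, while that of Acacb was -0.47 to 0.38 and that of Mlxipl -0.38 to 0.21 log2. A missed threshold does not show that the diets gave equal levels within those bounds.

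**Figure D2:**
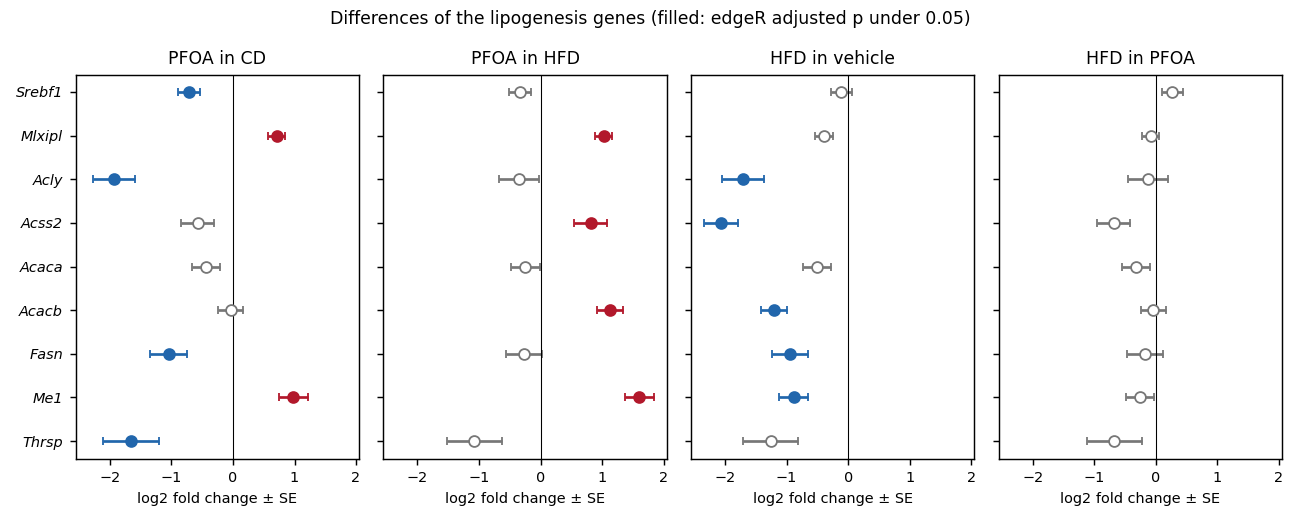
Log2 fold change ± SE (horizontal axis) of the 9 genes (rows) in 4 comparisons (panels), with filled points where edgeR's adjusted p was under 0.05. PFOA on CD gives 2 points to the right and 4 to the left, PFOA on HFD 4 to the right, HFD in vehicle 5 to the left and HFD in PFOA none.

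Of the regulators, Srebf1, which encodes SREBP-1, had 329, 427, 332 and 357 CPM in HFD_PFOA and 239.9, 340.0, 301 and 318 CPM in CD_PFOA. It had 469, 413, 501 and 441 CPM in HFD_vehicle and 620.0, 579, 496 and 275 CPM in CD_vehicle. On each diet 1 mouse made the groups overlap: CD_vehicle 4 lay below 3 of the CD_PFOA mice, and HFD_PFOA 2 lay above HFD_vehicle 2. Srebf1 fell with PFOA on CD to 299.7 ± 42.9 CPM, against 493 ± 154 CPM in CD_vehicle (SD, n = 4), a log2 fold change of -0.72 ± 0.18 (SE, edgeR adjusted p = 0.00556). On HFD it was 361 ± 45.8 CPM with PFOA and 456 ± 37.8 CPM with vehicle (-0.34 ± 0.18, edgeR adjusted p = 0.229), which was not called. HFD itself left no called difference without PFOA (-0.11 ± 0.18, edgeR adjusted p = 0.772), and the sign of that value turned with library totals (0.11).

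Mlxipl, which encodes ChREBP, had 441, 450.2, 409 and 467 CPM in HFD_PFOA and 408, 471, 506 and 489.7 CPM in CD_PFOA. It had 232, 220.97, 217 and 200.3 CPM in HFD_vehicle and 216, 392, 310.0 and 227.3 CPM in CD_vehicle. Every PFOA liver exceeded every vehicle liver, CD_vehicle 2 being the closest. Mlxipl rose 2.03-fold with PFOA on HFD (1.02 ± 0.14, edgeR adjusted p = 3.1e-05) and 1.64-fold on CD (0.71 ± 0.14, edgeR adjusted p = 0.000877). The PFOA and vehicle groups did not overlap in 2 members on CD, Mlxipl and Me1, against 22.7% of all genes, and in 6 on HFD (these, Acss2, Acacb, Acaca and Thrsp), against 25.3% of all genes. The 2 regulators therefore moved in opposite directions with PFOA on CD, where Mlxipl was above and Srebf1 below its vehicle level.

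Acly, the citrate-splitting enzyme, had 223, 268, 317 and 250.02 CPM in HFD_PFOA and 159, 247, 376 and 373 CPM in CD_PFOA. It had 410.4, 304, 327 and 306 CPM in HFD_vehicle and 304, 1242, 1542 and 1314 CPM in CD_vehicle. CD_vehicle 2, 3 and 4 were far above all other livers, whereas CD_vehicle 1 lay within the range of the other groups. Acly fell 3.81-fold with PFOA on CD (-1.93 ± 0.34, edgeR adjusted p = 0.000274) and was 3.27-fold lower with HFD in vehicle livers (-1.71 ± 0.34, edgeR adjusted p = 0.00303). With PFOA on HFD its value was -0.35 ± 0.33 (edgeR adjusted p = 0.552).

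Acss2, the acetate-using enzyme, had 151, 188, 208 and 203 CPM in HFD_PFOA and 193, 318, 409 and 284 CPM in CD_PFOA. It had 146, 101, 80.5 and 98.8 CPM in HFD_vehicle and 183, 569, 524 and 509 CPM in CD_vehicle. The HFD_vehicle livers were the lowest of all, and every one lay below every HFD_PFOA and CD_vehicle liver. With HFD in vehicle livers Acss2 fell 4.18-fold (-2.07 ± 0.28, edgeR adjusted p = 0.000188), the largest fall of the 9 members in that comparison. With PFOA it rose 1.76-fold on HFD (0.81 ± 0.27, edgeR adjusted p = 0.045) and had -0.57 ± 0.27 on CD (edgeR adjusted p = 0.136), which was not called. The rise on HFD kept its direction but lost its call under DESeq2 (DESeq2 adjusted p = 0.0614), with library totals (edgeR adjusted p = 0.0536) and in 9 of 16 fits that left out a mouse (edgeR adjusted p up to 0.136).

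The carboxylases parted. Acaca, the cytosolic form, had 87.0, 96.0, 102 and 102 CPM in HFD_PFOA and 96.9, 109.7, 135 and 143 CPM in CD_PFOA. It had 126, 112, 107 and 116 CPM in HFD_vehicle and 74.4, 149.9, 164 and 266 CPM in CD_vehicle. CD_vehicle held both the lowest and the highest liver of all 16, and the other 3 groups ran close together. Acaca was not called with PFOA on CD (-0.43 ± 0.23, edgeR adjusted p = 0.191), with PFOA on HFD (-0.25 ± 0.23, edgeR adjusted p = 0.543) or with HFD in vehicle (-0.51 ± 0.23, edgeR adjusted p = 0.182). On HFD the 4 PFOA livers all lay below the 4 vehicle livers, by a small margin.

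Acacb, the form at the mitochondrial surface, had 285, 247, 261 and 243 CPM in HFD_PFOA and 194, 301, 294 and 278 CPM in CD_PFOA. It had 146, 132, 86.5 and 111 CPM in HFD_vehicle and 151, 264, 319 and 362 CPM in CD_vehicle. The HFD_vehicle livers were below all others, and the means of the other 3 groups lay between 259 and 274 CPM. Acacb rose 2.18-fold with PFOA on HFD (1.12 ± 0.21, edgeR adjusted p = 0.000623) and fell 2.30-fold with HFD in vehicle (-1.20 ± 0.21, edgeR adjusted p = 0.00112). On CD its PFOA difference was -0.04 ± 0.20 (95% interval -0.46 to 0.39, edgeR adjusted p = 0.92). Counted per exonic length, Acacb made up 80.8% to 85.3% of the RNA of both carboxylases in HFD_PFOA and 77.4% to 83.0% in CD_PFOA. It made up 59.0% to 67.8% in HFD_vehicle and 70.7% to 78.3% in CD_vehicle. This share was described and not tested. It divides by all annotated exons, 17074 bases for Acaca and 9632 for Acacb, so its level depends on the annotation. Without lengths the HFD_vehicle means were close, 119 CPM for Acacb and 115 CPM for Acaca.

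Fasn, the synthase itself, had 1174, 1297, 1464 and 1424 CPM in HFD_PFOA and 734, 1393, 1979 and 1957 CPM in CD_PFOA. It had 1948, 1477, 1428 and 1636 CPM in HFD_vehicle and 1265, 2942, 3868 and 4444 CPM in CD_vehicle. CD_vehicle 2, 3 and 4 were the 3 highest livers, while CD_vehicle 1 was below all HFD_vehicle livers and within the range of the CD_PFOA livers. Fasn fell 2.06-fold with PFOA on CD (-1.05 ± 0.29, edgeR adjusted p = 0.0128) and 1.93-fold with HFD in vehicle (-0.95 ± 0.29, edgeR adjusted p = 0.0454), and on HFD it had -0.28 ± 0.29 with PFOA (edgeR adjusted p = 0.603). Of the 5 calls with HFD in vehicle this was the closest to the threshold. It ended without CD_vehicle 4 (-0.73, edgeR adjusted p = 0.102), with limma-voom (adjusted p = 0.0942), with library totals and in 13 of 16 fits that left out a mouse (edgeR adjusted p up to 0.127). The call with PFOA on CD ended when only the CD libraries were fitted (edgeR adjusted p = 0.0752).

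Me1, the NADPH-making malic enzyme, had 653, 689, 566 and 597 CPM in HFD_PFOA and 633, 751, 819 and 796 CPM in CD_PFOA. It had 285, 176, 184 and 179 CPM in HFD_vehicle and 162, 424, 505 and 431 CPM in CD_vehicle. All PFOA livers exceeded all vehicle livers, and on HFD the lowest PFOA liver was well above HFD_vehicle 1, the highest of its group. Me1 rose 3.04-fold with PFOA on HFD (1.602 ± 0.24, edgeR adjusted p = 6.57e-05), the largest rise of the 9, and 1.97-fold on CD (0.98 ± 0.23, edgeR adjusted p = 0.00418). With HFD in vehicle it fell 1.84-fold (-0.88 ± 0.23, edgeR adjusted p = 0.0204), a call that ended with library totals, with only the vehicle libraries (edgeR adjusted p = 0.109) and in 5 of 16 fits that left out a mouse (edgeR adjusted p up to 0.0835).

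Thrsp had 157, 150.1, 127 and 109.6 CPM in HFD_PFOA and 50.8, 218.9, 306 and 294 CPM in CD_PFOA. It had 321, 261, 320.2 and 247 CPM in HFD_vehicle and 146, 675, 1048 and 878 CPM in CD_vehicle. It spread most within the CD groups, where the lowest mouse of each, CD_PFOA 1 and CD_vehicle 1, stood far below the other 3. Thrsp fell 3.16-fold with PFOA on CD (-1.66 ± 0.45, edgeR adjusted p = 0.0108), a call that ended when only the CD libraries were fitted (edgeR adjusted p = 0.0673). On HFD it had 136 ± 21.7 CPM with PFOA and 287 ± 38.9 CPM with vehicle, without overlap, yet was not called in the fit of all 16 libraries (-1.08 ± 0.45, edgeR adjusted p = 0.114). HFD in vehicle gave -1.26 ± 0.45 (edgeR adjusted p = 0.0819), which was not called.

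For Thrsp and Fasn the HFD groups varied less than the CD groups. The coefficient of variation of Thrsp was 15.9% in HFD_PFOA, 54.1% in CD_PFOA, 13.5% in HFD_vehicle and 57.0% in CD_vehicle. That of Fasn was 9.80%, 38.8%, 14.5% and 44.4% in the same groups. Fitted on the 8 HFD libraries alone, edgeR called 8 of 9 members with PFOA, 4 higher and 4 lower, and over all genes 1689 higher and 1722 lower, against 1290 and 1186 with all 16 libraries. The 4 lower were Thrsp (edgeR adjusted p = 4.72e-06), Srebf1 (0.0136), Acaca (0.0266) and Acly (0.0322), with log2 fold changes of -1.08, -0.34, -0.25 and -0.35. The calls of these 4 on HFD thus depended on which libraries entered the fit.

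Ordered by mean level, the groups fell into a different order for different members. Me1 ran from CD_PFOA (749.9 CPM) through HFD_PFOA and CD_vehicle to HFD_vehicle (206 CPM), and only the PFOA groups were neighbours without a called difference. Mlxipl had the same order, and neither its PFOA groups nor its vehicle groups differed by a call (HFD in vehicle, -0.39 ± 0.14, edgeR adjusted p = 0.0813). Acly and Fasn were highest in CD_vehicle (1101 and 3129.7 CPM), and the steps from HFD_vehicle to CD_PFOA to HFD_PFOA below it were not called. Thrsp had that order too, without a called step between any neighbours. Acss2 and Acacb ran from CD_vehicle through CD_PFOA and HFD_PFOA to HFD_vehicle, and only the last step was called. Srebf1 ran from CD_vehicle through HFD_vehicle and HFD_PFOA to CD_PFOA with no called step between neighbours, and Acaca, from CD_vehicle through CD_PFOA and HFD_vehicle to HFD_PFOA, had none either.

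Across the diagonals of the design, the combination of HFD and PFOA was set against neither, and PFOA alone against HFD alone. In HFD_PFOA over CD_vehicle edgeR called 7 of 9 members, 2 higher and 5 lower, where it called 29.9% of all genes (14.9% higher and 15.0% lower). The groups did not overlap in 2 members, Mlxipl and Me1, against 27.4% of all genes. Thrsp (-2.34 ± 0.47), Acly (-2.06 ± 0.34), Acss2 (-1.25 ± 0.27), Fasn (-1.22 ± 0.30) and Acaca (-0.76 ± 0.23) fell, and Me1 (0.72 ± 0.23) and Mlxipl (0.63 ± 0.14) rose. The call of Acaca ended without CD_vehicle 4 (-0.42, edgeR adjusted p = 0.0945) and with library totals (edgeR adjusted p = 0.0693), and that of Me1 without CD_vehicle 1 and 4 (0.43, edgeR adjusted p = 0.0507), without HFD_PFOA 2 (edgeR adjusted p = 0.0621) and with the compared groups alone (edgeR adjusted p = 0.0789). Srebf1 gained a call there without CD_vehicle 4 (-0.64, edgeR adjusted p = 0.000399). In CD_PFOA over HFD_vehicle it called 5 of 9, 4 higher and 1 lower, where it called 20.1% of all genes (10.5% higher and 9.62% lower). The groups did not overlap in these 5, against 26.0% of all genes. Me1 (1.86 ± 0.24), Acss2 (1.497 ± 0.27), Acacb (1.17 ± 0.21) and Mlxipl (1.11 ± 0.14) were higher and Srebf1 (-0.61 ± 0.18) was lower with PFOA alone. Srebf1 lost that call without CD_PFOA 1 or HFD_vehicle 3 (edgeR adjusted p up to 0.0711). With library totals the calls over all genes were 3406 higher and 1331 lower in HFD_PFOA over CD_vehicle, against 2233 and 2252, and 975 and 2209 in CD_PFOA over HFD_vehicle, against 1569 and 1443. These comparisons share groups with the ones above, so they are not independent of them.

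Whether PFOA acted differently on the 2 diets was tested by the interaction, the PFOA difference on HFD minus that on CD. With all 16 libraries edgeR called 0 of 9 members, where it called 0.207% of all genes (0.0667% higher and 0.140% lower). An unadjusted p under 0.05 was reached by 3 members: Acacb (1.16 ± 0.29, edgeR adjusted p = 0.103), Acss2 (1.38 ± 0.38, edgeR adjusted p = 0.142) and Acly (1.58 ± 0.47, edgeR adjusted p = 0.168). DESeq2 called 1, Acacb (DESeq2 adjusted p = 0.00916), beside 91 of all genes higher and 132 lower. The limma-voom fit called 0, beside 11 of all genes higher and 29 lower. Without a filter on low counts edgeR called 3, Acly (edgeR adjusted p = 0.000142), Acss2 (0.000123) and Acacb (0.000129), all higher, and over all genes 131 higher and 159 lower. All 9 estimates were above 0, but they share the same libraries and their signs are not independent. That of Acaca turned to -0.15 without CD_vehicle 4. The interval was -0.11 to 0.72 for Mlxipl and -0.06 to 1.31 for Me1, which rose on both diets. With library totals the calls over all genes were 6 higher and 38 lower, against 10 and 21.

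The vehicle libraries were then checked singly, since they set the base of these differences. CD_vehicle 1 was the lowest of its group in 8 of 9 members and the highest in Srebf1. Against the mean of the other 3 libraries it stood at -2.55 log2 in Thrsp, -2.16 in Acly, -1.55 in Fasn, -1.54 in Acss2 and -1.48 in Me1, but at 0.53 in Srebf1. The median over members was -1.48, beside 0.04 over all genes. The same mouse had 6997 CPM summed over the acute phase genes Saa1, Saa2, Lcn2, Orm2 and Hp, where the other CD_vehicle mice had 1219 to 1728 CPM. Its Saa1, a serum amyloid A made by the liver in inflammation and near-identical to Saa2, was 1255 CPM, against 20.7 to 37.3 CPM in the other 3. The part of whatever raised these genes in the levels of the members was not tested.

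CD_vehicle 4 stood apart in another way. Against the mean of the other 3 libraries Srebf1 was at -1.03 log2 and Mlxipl at -0.39, while Acaca was at 1.12, Thrsp at 0.90 and Fasn at 0.87. In CD_vehicle the mouse with the lowest Srebf1 thus had the highest Fasn, and the mouse with the highest Srebf1 the lowest. This order did not hold in CD_PFOA, where library 1 was the lowest in both Srebf1 (239.9 CPM) and Fasn (734 CPM). CD_vehicle 4 also held 647 CPM summed over 8 B cell markers, where the other 15 libraries held 18.8 to 68.6 CPM. Among the remaining libraries, CD_PFOA 1 was the lowest of its group in all 9 members (median -0.58, Thrsp -2.41), with 1514 CPM in the acute phase sum, against 1393 to 1641 CPM in its group. HFD_vehicle 1 was the highest of its group in 8 of 9 (median 0.37).

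**Figure D3:**
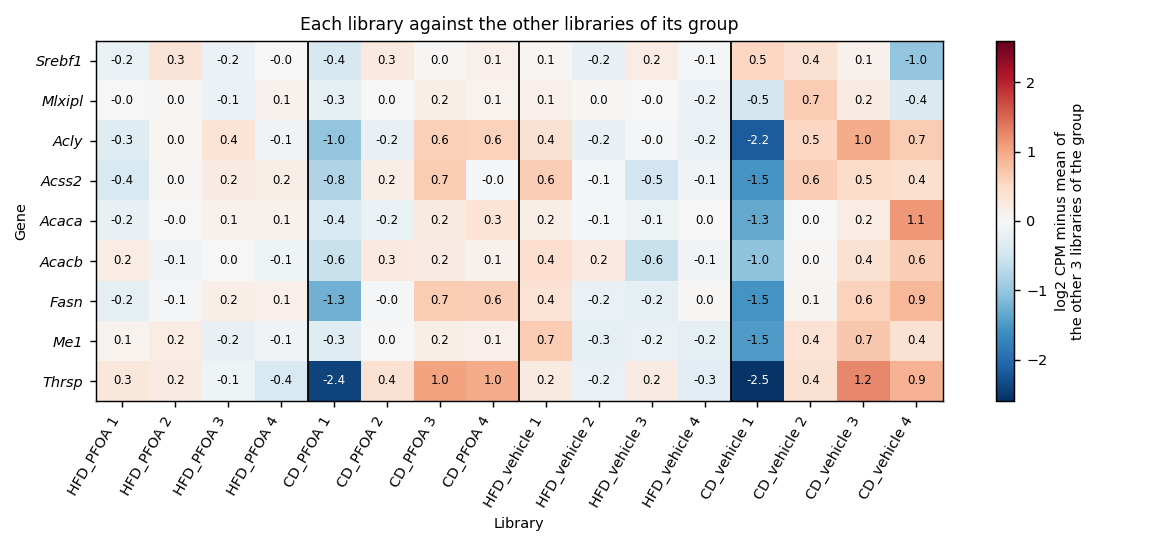
Each library's log2 CPM minus the mean of the other 3 libraries of its group, by gene (rows) and library (columns), with blue for lower and red for higher. CD_vehicle 1 and CD_PFOA 1 are blue in most genes, Srebf1 is red in CD_vehicle 1, and CD_vehicle 4 is blue in Srebf1 and Mlxipl and red in Acaca, Thrsp and Fasn.

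Leaving out these vehicle libraries changed calls but turned no called direction. Without CD_vehicle 1, edgeR called 8 of 9 members with PFOA on CD, 2 higher and 6 lower, where it called 1721 of all genes higher and 1686 lower, with Acss2 (-0.83, edgeR adjusted p = 0.00396) and Acaca (-0.67, edgeR adjusted p = 0.00381) added. It then called 8 of 9 lower with HFD in vehicle, where it called 747 of all genes higher and 799 lower, with Thrsp (-1.59, edgeR adjusted p = 0.00551), Acaca (-0.75, edgeR adjusted p = 0.0045) and Mlxipl (-0.51, edgeR adjusted p = 0.0151) added. Srebf1 was the member not called there (0.02, edgeR adjusted p = 0.963). Since CD_vehicle 1 was the lowest of its group in 8 of 9 members, leaving it out raised their CD_vehicle level by construction. The added calls are therefore no separate evidence of lower levels.

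The interaction changed most. Over all genes, 106 were called without CD_vehicle 1 (62 higher and 44 lower), 352 without CD_vehicle 4 and 652 without both. Without CD_vehicle 1 edgeR called 4 of 9 members, all higher: Acly (1.89, edgeR adjusted p = 0.0029), Acss2 (1.64, edgeR adjusted p = 0.00424), Acacb (1.36, edgeR adjusted p = 0.00367) and Me1 (0.87, edgeR adjusted p = 0.0405). Without CD_vehicle 4 it called 0, and without both 5, with Mlxipl added (0.61, edgeR adjusted p = 0.0138). Without CD_vehicle 4 the fall of Srebf1 with PFOA on CD was -0.92 (edgeR adjusted p = 1.06e-05), and Acaca moved to -0.10 (edgeR adjusted p = 0.744). With PFOA on HFD, a comparison that holds neither library, Srebf1 gained a call as lower without CD_vehicle 4 (-0.34, edgeR adjusted p = 0.0447), and Thrsp without CD_vehicle 1 (-1.08, edgeR adjusted p = 0.0243). Without both, 2 mice remained in CD_vehicle. The members called in the interaction without CD_vehicle 1 were all lowest in that library within its group. Leaving it out raised their CD_vehicle level by construction. These calls are thus no separate evidence that the PFOA difference depends on diet.

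**Figure D4:**
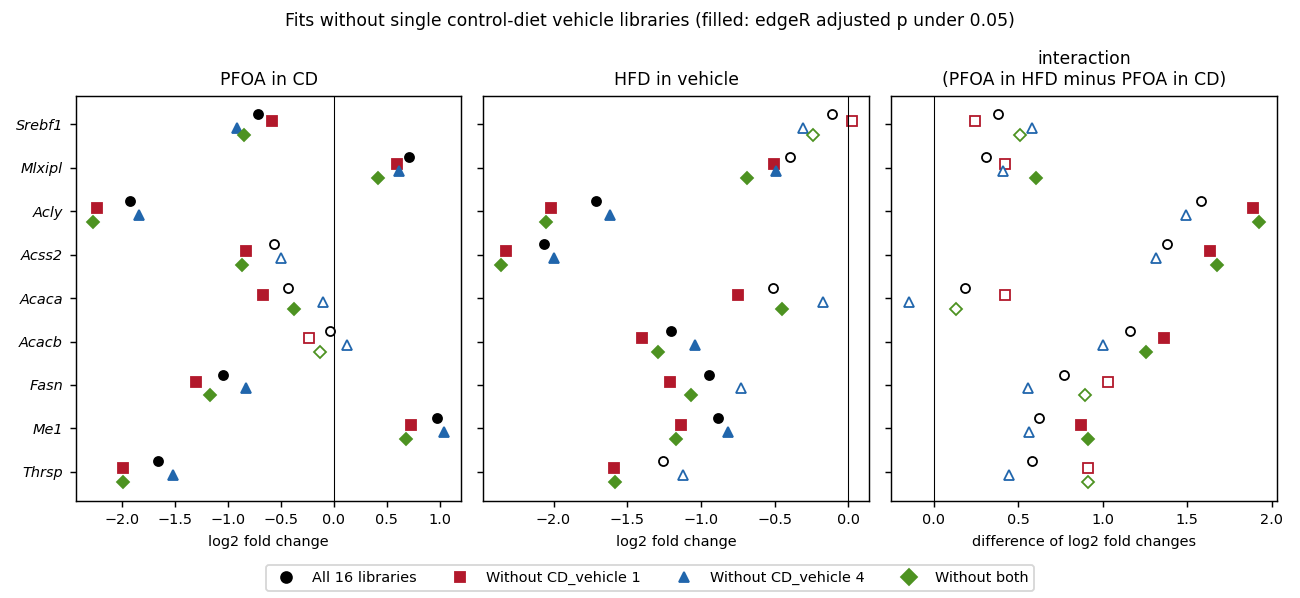
Log2 fold change of the 9 genes (rows) with all 16 libraries and without CD_vehicle 1, CD_vehicle 4 or both, with filled symbols where edgeR's adjusted p was under 0.05. In the interaction panel the symbols are open with all libraries and filled for 4 genes without CD_vehicle 1.

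Per exonic length, the member with the highest group mean was not the same in every group, as a description without a test. Me1 was the highest in HFD_PFOA (163 CPM per kilobase, with Fasn at 122) and in CD_PFOA (195, with Fasn at 138), in the mean and in each of the 8 PFOA libraries. In the vehicle groups the order of Fasn and Thrsp held only in the means: Fasn was the higher in HFD_vehicle (148, with Thrsp at 131) except in HFD_vehicle 3, and Thrsp in CD_vehicle (314, with Fasn at 286) except in CD_vehicle 1 and CD_vehicle 4. Acaca was the lowest in every group, at 5.67 CPM per kilobase in HFD_PFOA, 7.10 in CD_PFOA, 6.74 in HFD_vehicle and 9.59 in CD_vehicle. Lengths are unions of all annotated exons, 17074 bases for Acaca and 10163 for Acss2. Such a length lowers the level of a gene where part of it is little used, and exon use was not measured. Together the 9 genes held 0.342% to 0.414% of counts in HFD_PFOA, 0.277% to 0.482% in CD_PFOA, 0.338% to 0.437% in HFD_vehicle and 0.290% to 0.841% in CD_vehicle.

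Around the members, 8 lists of pathway genes were counted in the same fit, where the median over all genes was near 0. Over all genes, edgeR called 8.60% higher and 7.91% lower with PFOA on HFD, and 11.8% and 12.6% on CD. With HFD in vehicle it called 5.19% and 5.21%, and the list counts are to be read beside these shares. Library totals moved the median of all genes with HFD in vehicle by 0.217 log2, a shift that the list values with that scaling also carry. Among 17 regulators of SREBP-1 and ChREBP, 3 rose and 2 fell with PFOA on HFD (median -0.07), 1 rose and 5 fell on CD (-0.18), and 0 rose and 5 fell with HFD in vehicle (-0.12; 0 and 3, with a median of 0.10, with library totals). Mlx, the partner that ChREBP binds DNA with, fell with PFOA on CD (-0.74 ± 0.12) and on HFD (-0.37 ± 0.12), where Mlxipl itself rose. Insig2, which holds SREBP in the endoplasmic reticulum, fell on CD (-0.89 ± 0.15) and HFD (-0.58 ± 0.14). Its relative Insig1, a known SREBP target, fell with PFOA on CD (-0.79 ± 0.13) and with HFD in vehicle (-0.78 ± 0.13), and had -0.30 ± 0.13 with PFOA on HFD (edgeR adjusted p = 0.125). Scap, the escort of SREBP, rose with PFOA on HFD (0.52 ± 0.12) and fell with HFD in vehicle (-0.87 ± 0.12). Ppargc1b, a coactivator of SREBP-1 in mouse liver, rose on CD (1.61 ± 0.28) and HFD (1.30 ± 0.28) to 9.83 CPM in HFD_PFOA and 9.25 CPM in CD_PFOA, against 4.0 and 3.03 CPM in the vehicle groups of the same diets.

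Of 11 modifiers of acetyl-CoA carboxylase, 2 rose and 1 fell with PFOA on HFD, 3 rose and 1 fell on CD, and 1 rose and 2 fell with HFD in vehicle. Mid1ip1, a relative of Thrsp that promotes carboxylase polymers, rose with PFOA on HFD (0.60 ± 0.17), fell with HFD in vehicle (-0.61 ± 0.17) and had 0.18 ± 0.17 with PFOA on CD (edgeR adjusted p = 0.477). Trib3, a pseudokinase tied to carboxylase breakdown in mouse fat, rose in all 3 comparisons (1.89 ± 0.20 with PFOA on HFD, 2.97 ± 0.21 on CD and 0.84 ± 0.21 with HFD in vehicle). Of the subunits of AMPK, the kinase that switches the carboxylases off, the catalytic Prkaa2 rose with PFOA on CD (0.45 ± 0.11) and the regulatory Prkag1 fell (-0.97 ± 0.14). With library totals 4 rose and 0 fell with HFD in vehicle, where that scaling called 2052 of all genes higher and 288 lower. The direction of this list there depended on the scaling, as it did over all genes.

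Of 17 genes of citrate and NADPH supply, 4 rose and 2 fell with PFOA on HFD (median 0.17), 3 rose and 6 fell on CD (-0.08) and 0 rose and 7 fell with HFD in vehicle (-0.32; 2 and 3 with library totals). The mitochondrial malate dehydrogenase Mdh2 rose with PFOA on HFD (0.55 ± 0.09) and CD (0.56 ± 0.09), as Me1 did. G6pdx, the entry of the NADPH-making pentose phosphate pathway, fell with PFOA on CD (-1.63 ± 0.33) and with HFD in vehicle (-1.76 ± 0.34). G6pdx averaged 11.04 CPM in CD_PFOA, 10.1 CPM in HFD_vehicle and 34.2 CPM in CD_vehicle. The CD_vehicle libraries 1 to 4 held 14.5, 29.6, 28.6 and 64.0 CPM, and CD_vehicle 1 lay below CD_PFOA 2 (15.7 CPM). The folate enzymes Aldh1l1 (-1.22 ± 0.12 and -0.73 ± 0.12) and Mthfd1 (-0.64 ± 0.11 and -0.50 ± 0.11), which also make NADPH, fell in the same comparisons. On HFD, Aldh1l1 had 275 to 367 CPM with PFOA and 503 to 529 CPM with vehicle, without overlap. Mthfd1 had 115 to 160 CPM and 139 to 167 CPM there, with overlap.

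Of 14 genes of sugar entry, 1 rose and 6 fell with PFOA on HFD (median -0.35), 0 rose and 7 fell on CD (-0.47), and 0 rose and 4 fell with HFD in vehicle (-0.13; 1 and 1, with a median of 0.09, with library totals). The fructose genes Khk (-1.50 ± 0.13 on HFD, -1.65 ± 0.13 on CD) and Tkfc (-1.27 ± 0.13 and -0.94 ± 0.13) and the transporter Slc2a2 (-1.40 ± 0.16 and -1.27 ± 0.16) fell with PFOA on both diets. Khk and Slc2a2 are known ChREBP targets, and they fell in the livers where Mlxipl rose. Mpc2, a subunit of the mitochondrial pyruvate carrier, was the gene that rose on HFD (0.28 ± 0.08), and it fell with HFD in vehicle (-0.49 ± 0.08).

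Malonyl-CoA users and relatives of the members held 14 genes, of which 13 were in the table and 11 were tested. With PFOA 7 of these rose on HFD (median 0.51) and 6 on CD (0.60), none fell, and with HFD in vehicle 0 were called by edgeR, 0 at an unadjusted p under 0.05 and 0 by DESeq2 or limma-voom. Mlycd, which breaks malonyl-CoA down, rose on HFD (0.79 ± 0.10) and CD (0.63 ± 0.10), and so did Acsf3 (0.63 ± 0.12 and 0.75 ± 0.12), which makes malonyl-CoA inside mitochondria. The mitochondrial relatives of Acss2 rose too: Acss3 by 0.76 ± 0.13 and 0.68 ± 0.13, and Acss1 by 3.98 ± 0.70 and 2.51 ± 0.66. HFD_PFOA 1 held 26.5 CPM of Acss1 and the other 3 HFD_PFOA libraries 5.48 to 5.57 CPM, beside 2.29 to 6.997 CPM in CD_PFOA, 0.154 to 1.53 CPM in HFD_vehicle and 0.167 to 1.92 CPM in CD_vehicle. Me2, the mitochondrial relative of Me1, was not called (0.23 ± 0.34 on HFD, edgeR adjusted p = 0.733, and 0.60 ± 0.35 on CD, edgeR adjusted p = 0.235).

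Downstream, of 15 genes of fatty acid modification and esterification, 5 rose and 1 fell with PFOA on HFD (median 0.44), 3 rose and 5 fell on CD (-0.08), and 1 rose and 8 fell with HFD in vehicle (-0.43; 1 and 2 with library totals). Acsl1, which activates long-chain fatty acids and is a known PPARA target, rose on both diets to 3323 ± 493 CPM in HFD_PFOA and 3459 ± 159 CPM in CD_PFOA, against 818 ± 80.0 and 1081 ± 238 CPM in vehicle. Its relative Acsl3 rose with PFOA on HFD (0.74 ± 0.12) and had 0.03 ± 0.12 on CD (edgeR adjusted p = 0.907), with an interaction of 0.72 ± 0.17 (edgeR adjusted p = 0.0967). Pnpla3, a known SREBP-1 and ChREBP target, fell with HFD in vehicle (-2.55 ± 0.53) and with PFOA on CD (-1.43 ± 0.51). CD_vehicle 1 held 7.13 CPM of Pnpla3, where CD_vehicle 2 to 4 held 41.4 to 81.0 CPM and HFD_vehicle 7.32 to 9.96 CPM. The desaturase Scd2, whose reads the counting could have split with its relatives, rose in all 3 comparisons (3.53 ± 0.39 with PFOA on HFD, 4.47 ± 0.41 on CD and 1.55 ± 0.37 with HFD in vehicle). The phosphatidate phosphatase Lpin1 fell with PFOA on HFD (-3.10 ± 0.34) and CD (-2.31 ± 0.33), and the acyltransferase Agpat2 fell with PFOA on CD (-0.72 ± 0.11) and with HFD in vehicle (-0.43 ± 0.11).

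Of 12 other SREBP or ChREBP targets, 5 rose and 0 fell with PFOA on HFD (median 0.16), 1 rose and 5 fell on CD (-0.52) and 0 rose and 8 fell with HFD in vehicle (-0.998). Txnip, a sugar-responsive ChREBP target, rose with PFOA on HFD (1.32 ± 0.19) and CD (1.64 ± 0.19), whereas G6pc, another, fell on CD (-1.72 ± 0.25) and had -0.35 ± 0.24 on HFD (edgeR adjusted p = 0.388). The sterol genes Pmvk (-1.39 ± 0.19) and Stard4 (-1.21 ± 0.17) fell with HFD in vehicle, and Stard4 also fell with PFOA on CD (-0.60 ± 0.17). In 11 of these 12 genes CD_vehicle 4 was above the mean of the remaining libraries of its group (median 0.70 log2), and in 11 CD_vehicle 1 was below it (median -0.80), and their part in these counts was not tested beyond the fits without them: without CD_vehicle 1 the counts were 1 and 7 with PFOA on CD and 0 and 8 with HFD in vehicle, and without CD_vehicle 4 they were 2 and 4, and 1 and 8. Of 13 insulin and fasting responsive genes, 3 rose and 5 fell with PFOA on either diet and 0 rose and 1 fell (Tat, -0.99 ± 0.15) with HFD in vehicle. Pdk4, which shuts pyruvate dehydrogenase, rose (3.98 ± 0.32 on HFD and 2.998 ± 0.31 on CD), as did the binding protein Igfbp2 (2.10 ± 0.22 and 1.20 ± 0.21), and the gluconeogenic Pck1 fell (-1.01 ± 0.18 and -1.31 ± 0.18).

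In HFD_PFOA over CD_PFOA edgeR called 0 genes of all 8 lists, and at an unadjusted p under 0.05 the most were 1 higher and 7 lower of the 14 sugar entry genes, of which DESeq2 called 0 higher and 2 lower. With limma-voom 0 of each list were called there. Over all genes DESeq2 called 99 higher and 80 lower in this comparison, and limma-voom 13 and 5.

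**Figure D5:**
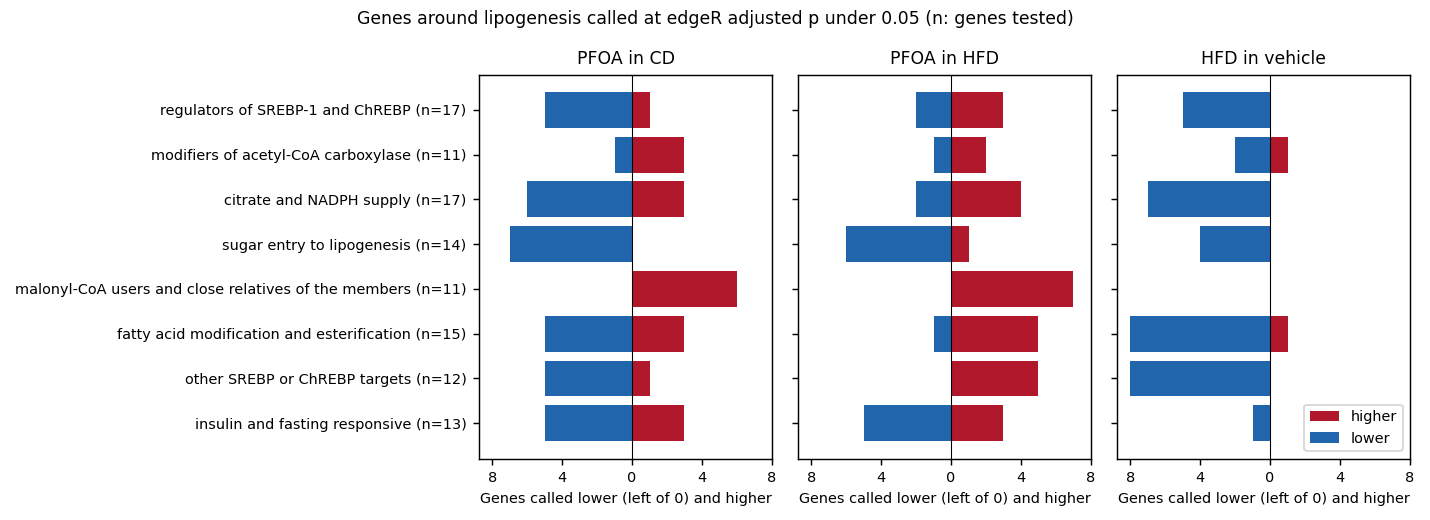
Number of genes called higher (right of 0) and lower (left of 0) in 8 lists around lipogenesis (rows, n tested in brackets) in 3 comparisons (panels). PFOA on HFD gives 5 higher and 0 lower of the other SREBP or ChREBP targets, PFOA on CD 1 and 5, and HFD in vehicle 0 and 8.

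Markers of other cells were checked beside the members, since fat tissue is also rich in lipogenic enzymes. Of 10 adipocyte markers, the defining Lep was at 0 in all 16 libraries, and Adipoq and Plin1 were at or under 0.458 and 0.375 CPM. The summed adipocyte level was 677 to 1054 CPM in HFD_PFOA, 736 to 1066 CPM in CD_PFOA, 2562 to 3400 CPM in HFD_vehicle and 2787 to 5462 CPM in CD_vehicle. Its largest part was Car3, which hepatocytes also make, with 488 to 766 CPM in HFD_PFOA, 626 to 902 CPM in CD_PFOA, 2465 to 3265 CPM in HFD_vehicle and 2751 to 5432 CPM in CD_vehicle. Of the 6 adipocyte markers tested, edgeR called 3 higher (Fabp4, Cidea and Adrb3) and 1 lower (Car3) with PFOA on each diet, with medians of 0.98 log2 on HFD and 0.46 on CD, and 2 higher (Fabp4 and Cidea) and 0 lower with HFD in vehicle, with a median of 0.33. Fabp4, a lipid-binding protein, had 75.6 to 116.3 CPM in HFD_PFOA, 36.5 to 59.8 CPM in CD_PFOA, 23.7 to 28.9 CPM in HFD_vehicle and 7.46 to 20.9 CPM in CD_vehicle, and Cidea, a lipid droplet protein, 107.9 to 238.5, 55.5 to 104.9, 36.9 to 100.2 and 6.96 to 37.3 CPM in the same groups. The part of these genes in the results was not tested. Of the 10 hepatocyte markers 8 fell with PFOA on HFD, 8 on CD and 6 with HFD in vehicle, with medians of -0.45, -0.81 and -0.58 log2. In these 3 comparisons edgeR called 7.91%, 12.6% and 5.21% of all genes lower, and 8.60%, 11.8% and 5.19% higher. The summed macrophage level was 391 to 819 CPM in HFD_PFOA, 217 to 534 CPM in CD_PFOA, 562 to 775 CPM in HFD_vehicle and 269 to 528 CPM in CD_vehicle, and edgeR called 5 of its 10 markers higher with HFD in vehicle (median 0.80 log2).

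The genes whose pattern over the 16 libraries came closest to each member were found by the mean absolute difference of log2 CPM after centring, among 9284 genes of at least 5 CPM. For Fasn they were Pmf1 (0.217), Aacs (0.229) and Smim27 (0.265), for Acly they included Elovl6 (0.277) and Aqp8 (0.295) and for Thrsp Elovl6 (0.227) and Got1 (0.393), with the log2 difference in brackets. The elongase Elovl6 was thus shared by Acly and Thrsp. For Me1 they were Rdh16 (0.195), Fabp1 (0.274) and mt-Rnr1 (0.282), for Mlxipl Cmbl (0.116), Pank1 (0.124) and Hspe1 (0.138) and for Acacb Acat2 (0.192), Acsl5 (0.194) and 1810008I18Rik (0.202). For Acss2 they were Rdh11 (0.170), Nsdhl (0.252) and Ugt1a5 (0.257), for Acaca Pfkfb1 (0.151), Cyb5r3 (0.152) and Gas2 (0.170) and for Srebf1 Snx18 (0.138), Il13ra1 (0.149) and Emd (0.153). Among the members themselves Acaca and Fasn were the closest pair (0.215), followed by Acly and Fasn (0.277) and Mlxipl and Acacb (0.280), and Me1 and Thrsp were the farthest apart (1.36). These distances share libraries and their scaling, and are descriptions.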

How the data were processed

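The table deposited by the authors gives raw read counts per gene in 16 libraries of flash-frozen liver, prepared without strand information for BGI sequencing, per the labels' protocols. Per the submitters' processing notes, Trimmomatic 0.33, STAR 2.5.2b, bcl2fastq 2.20.0.422 and featureCounts (Subread 1.6.0) were used with GRCm38. No source used here states the annotation release or how reads shared by genes were counted. Diet and treatment in the labels set the groups. Replicate numbers only name libraries and pair none. The design text treats mice as biological replicates. Library pairs within a group all differed by more than counting noise (chi-square over its degrees of freedom, 8.55 to 152 in 24 pairs).

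filterByExpr kept 14998 of 53465 genes, with 99.9% of counts. TMM scaling, glmQLFit and glmQLFTest of edgeR 4.0.16 (R 4.3.3) followed, with a mean per group in 1 fit of all 16 libraries, in which the common BCV was 0.242. Adjusted p-values are Benjamini-Hochberg values over the genes tested. The fit was tested on simulated data. Errors of log2 fold changes are SE, intervals are 95%, errors of CPM are SD over 4 mice, and log2 CPM used a prior count of 2. Intervals of the fit cover the spread between mice, and reads carry no molecular identifiers.

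Alternatives were RLE scaling, library totals, no filter, DESeq2 1.42.0, limma-voom (limma 3.58.1), the compared groups alone, leaving out each library, and leaving out CD_vehicle 1 and 4 together. The members, the 8 pathway lists, the marker lists and the acute phase genes were chosen with earlier results of these data known. From each pathway list, up to 4 genes with the smallest p over both PFOA comparisons and up to 2 over HFD in vehicle are named, except a few genes that are not reported here.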

Additional observations from a re-analysis of the deposited data

Results flagged for a closer look

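Of 36 sets of 4 libraries (9 genes in 4 groups), 2 held a library whose gap to its nearest neighbour, divided by the range of the group, was above the critical value of 0.829. Chance alone gives about 1 in 20, so 2 of 36 is near what chance gives. The 9 genes of a group share its libraries, so the sets are not independent. Acss2 was 183 CPM in CD_vehicle 1, against 509 to 569 CPM in the other 3 libraries of the group (ratio 0.846), and this was the library with the high acute phase sum. Me1 was 285 CPM in HFD_vehicle 1, against 176 to 184 CPM in the other 3 (ratio 0.925), and this library was the highest of its group in 8 of the 9 members. Both lie in vehicle groups, and the fits without them are given in the report or below. Without HFD_vehicle 1 Me1 had 1.80 with PFOA on HFD (edgeR adjusted p = 5.1e-05) and -1.08 with HFD in vehicle (edgeR adjusted p = 0.0103).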

How the results depend on the processing

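Over 1440 recomputed values of the 9 members, 1330 kept their direction and side of the threshold, 44 lost a call, 45 gained one and 21 turned sign, and 0 of those that turned had been called. No paired analysis was possible because replicate numbers follow the order of the records. The number of genes called with HFD in vehicle (1561) was 896 with the compared groups alone, 2363 without CD_vehicle 1 and 4, and 881 to 2272 on leaving out a library. With HFD in PFOA (9) it was 142 higher and 83 lower (2.3e2 in all) without a filter, 179 with DESeq2, 18 with limma-voom, 129 with the compared groups alone, 208 without CD_vehicle 1 and 4, and 1 to 56 on leaving out a library. For the interaction (31) it was 290 without a filter, 223 with DESeq2, 652 without CD_vehicle 1 and 4, and 13 to 352 on leaving out a library.

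With library totals the sign turned for Acacb with PFOA in CD (0.043, and 0.014 with limma-voom), Srebf1 with HFD in vehicle (0.11), Mlxipl (0.0080) and Acacb (0.052) with HFD in PFOA, Acacb in HFD_PFOA over CD_vehicle (0.095) and Acaca in CD_PFOA over HFD_vehicle (-0.062). On leaving out a library, the log2 fold change ran from -0.24 to 0.12 for Acacb with PFOA in CD, -0.31 to 0.021 for Srebf1 with HFD in vehicle, -0.33 to 0.032 for Acly and -0.17 to 0.024 for Acacb with HFD in PFOA, and -0.15 to 0.42 for Acaca in the interaction. It ran from -0.28 to 0.082 for Acacb in HFD_PFOA over CD_vehicle, and from -0.018 to 0.17 for Acaca and -0.26 to 0.13 for Fasn in CD_PFOA over HFD_vehicle.
Depth limits the members little, since every library held at least 50.8 CPM of each, and the spread between 4 mice, widest in CD_vehicle, sets the precision. The cause of these changes was not tested.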
